A study of Mus musculus with 2 samples.

Results

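The GABA-B receptor genes Gabbr1 and Gabbr2 and the genes of their auxiliary subunits, Kctd8, Kctd12, Kctd12b and Kctd16, were described in captured mouse Purkinje cells. These 6 genes were chosen by name from knowledge of the receptor, out of 43346 mouse genes in the deposited tables, and all 6 were found there by gene identifier. Purkinje cells are the GABAergic output neurons of the cerebellar cortex. RNA was sequenced in 2 libraries, pool 1 and pool 2, each made from 50 laser-captured cells of wild-type C57Bl6 males aged 8 months, with no treatment named. The source field gives the strain as B6NCrl. Both libraries form 1 group, so no condition was compared and no test could be made. The labels give the pools unlike biosample identifiers but 1 donor identifier, so they may come from the same animal, and the differences between them may be technical. A Smart-seq protocol is linked for pool 2 only, and no protocol is named for the library of pool 1.

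GABA-B receptors are G protein-coupled receptors for GABA that work only as a pair of unlike subunits. GABBR1 binds GABA, and GABBR2 brings the pair to the cell surface and couples it to Gi/o proteins, whose beta-gamma dimers open GIRK potassium channels and hold back presynaptic calcium channels. The 4 KCTD proteins bind the tail of GABBR2. In expression systems KCTD12 and KCTD12B give currents that desensitize quickly, while KCTD8 and KCTD16 give currents that largely do not. GABBR1 is made in a long form, GABA-B1a, whose N-terminal sushi domains bind extracellular partners, and a short form, GABA-B1b, without them. In rat cerebellum the short form has been assigned mainly to Purkinje cells and the long form mainly to granule cells.

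The sequences that tell the GABBR1 forms apart are shown first, because the largest share of the Gabbr1 difference in TPM between the pools lay in 1 form. They are coding bases from GENCODE M21 transcripts on GRCm38, plus strand, 5′ to 3′. Gabbr1-203 has 844 codons and starts in its own stretch of 145 coding bases, at chr17:37050854-37051028 with the first bases of the exon that both forms share. Gabbr1-201 has 960 codons and reaches the same exon through 493 coding bases in exons of its own. Its exons at chr17:37047454-37047657 and chr17:37048421-37048606 encode the sushi domains, and its last own exon, at chr17:37049777-37049797, is joined to the shared exon. Capitals mark 30 bases of the shared exon, which are the same in both forms, and both lead into it in the same reading frame.
start of Gabbr1-203: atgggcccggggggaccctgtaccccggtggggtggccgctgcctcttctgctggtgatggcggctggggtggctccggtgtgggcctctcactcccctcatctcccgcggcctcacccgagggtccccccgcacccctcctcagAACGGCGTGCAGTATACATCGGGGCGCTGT
exon 3 of Gabbr1-201: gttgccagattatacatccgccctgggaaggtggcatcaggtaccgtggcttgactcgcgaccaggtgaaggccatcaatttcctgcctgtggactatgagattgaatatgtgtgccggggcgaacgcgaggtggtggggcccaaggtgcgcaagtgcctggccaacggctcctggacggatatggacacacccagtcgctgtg
exon 4 of Gabbr1-201: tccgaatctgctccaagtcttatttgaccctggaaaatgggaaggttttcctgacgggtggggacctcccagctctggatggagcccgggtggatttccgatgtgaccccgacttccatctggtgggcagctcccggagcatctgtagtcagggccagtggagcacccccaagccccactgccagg
junction of Gabbr1-201: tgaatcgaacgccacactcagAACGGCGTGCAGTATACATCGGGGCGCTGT

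Levels are the deposited TPM values, each a length-corrected share of all transcripts, with an exact Poisson interval at 95% that covers counting error only. The depth was 23830685 expected counts for pool 1 and 27907662 for pool 2. A gene is called detected where both pools reach 1 TPM. By that rule 5 of the 6 genes were detected, beside 28.8% of all genes and 51.7% of protein-coding genes. The 6 genes fell into an abundant set, Gabbr1, Kctd12 and Gabbr2, and a low set, Kctd8, Kctd12b and Kctd16. The cell type markers were those of the label, with all 10 Purkinje cell markers detected at a summed 32211 TPM in pool 1 and 30337 TPM in pool 2. Markers of other cells were present as well, among them 8 of 8 for Bergmann glia or astrocytes (3937 TPM in pool 1 and 4305 TPM in pool 2) and 6 of 7 for granule cells (115.5 TPM in pool 1 and 148.9 TPM in pool 2). In such pools fewer cells of a type and less RNA per cell cannot be told apart.

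Gabbr1 (chromosome 17, 37045966 to 37075067, plus strand), the GABA-binding subunit, had 118.6 TPM in pool 1 (interval 116 to 121, 9339 counts) and 78.3 TPM in pool 2 (76.6 to 80.0, 8207 counts). Its mean was 98.4 ± 28.5 TPM (SD, n = 2), and it stood 1102nd in pool 1 and 1540th in pool 2 among 21474 protein-coding genes. Pool 1 was the higher, by 0.59 in log2(TPM + 1), a ratio of 1.51. Gabbr2 (chromosome 4, 46662305 to 46991873, minus strand), the G protein-coupling subunit, had 63.3 TPM in pool 1 (61.8 to 64.8, 7082 counts) and 56.7 TPM in pool 2 (55.4 to 57.9, 8020 counts). Its mean was 59.98 ± 4.70 TPM (SD, n = 2) and the log2 ratio of pool 1 over pool 2 was 0.16. Gabbr1 stood above Gabbr2 in both pools.

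Gabbr1 made up 65.2% of the summed TPM of both receptor genes in pool 1 and 58.0% in pool 2, a mean of 61.6% ± 5.09 (SD, n = 2). The Gabbr1 level was 1.87 times that of Gabbr2 in pool 1 and 1.38 times in pool 2. Counts, which are not corrected for length, gave Gabbr1 a share of 56.9% in pool 1 and 50.6% in pool 2, so the excess over Gabbr2 was smaller before the correction. Gabbr2 has the longer transcript, 5737 bases for its leading form, against 4036 bases for that of Gabbr1.

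Kctd12 (chromosome 14, 102976581 to 102982637, minus strand), a partner of the fast-desensitizing kind, was the leading KCTD partner in both pools. It had 40.6 TPM in pool 1 (39.1 to 42.1, 2863 counts) and 96.3 TPM in pool 2 (94.1 to 98.5, 7139 counts), a mean of 68.4 ± 39.4 TPM (SD, n = 2). Pool 1 was the lower, at 0.427 times pool 2 on the TPM + 1 scale, a log2 ratio of -1.23. Its rank among protein-coding genes was 2678 in pool 1 and 1287 in pool 2, so it lay below Gabbr2 in pool 1 and above Gabbr1 in pool 2. By whole-gene TPM, Gabbr1, Kctd12 and Gabbr2 therefore had no fixed order, and their means differed by less than the SD of Kctd12. Over protein-coding transcripts only, the order was Gabbr1, Gabbr2 and Kctd12 in both pools, with Kctd12 at 22.9 TPM in pool 1 and 43.7 TPM in pool 2.

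The other KCTD partners were near the detection limit. Kctd8 (chromosome 5, 69109285 to 69341679, minus strand), a partner of the non-desensitizing kind, had 1.91 TPM in pool 1 (1.56 to 2.31, 106 counts) and 2.65 TPM in pool 2 (2.28 to 3.06, 183 counts). Its mean was 2.28 ± 0.523 TPM (SD, n = 2). Kctd12b (X chromosome, 153685154 to 153696391, minus strand), like Kctd12 fast-desensitizing, had 1.62 TPM in pool 1 (1.37 to 1.90, 151 counts) and 1.39 TPM in pool 2 (1.19 to 1.62, 165 counts). The intervals of the pools overlapped for both genes, and the mean of Kctd12b was 1.51 ± 0.163 TPM (SD, n = 2). Kctd16 (chromosome 18, 40256962 to 40531630, plus strand), the second non-desensitizing partner, was under the detection limit, with 0.73 TPM in pool 1 (0.433 to 1.15, 18 counts) and 0.29 TPM in pool 2 (0.133 to 0.551, 9 counts). Its reads were counted over the only Kctd16 model in the deposited tables, of 1349 bases, of which 1281 are coding. GENCODE M21 holds 10 Kctd16 models, among them a longer coding one of 2767 bases, and reads from parts outside the short model were not counted here.

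**Figure D1:**
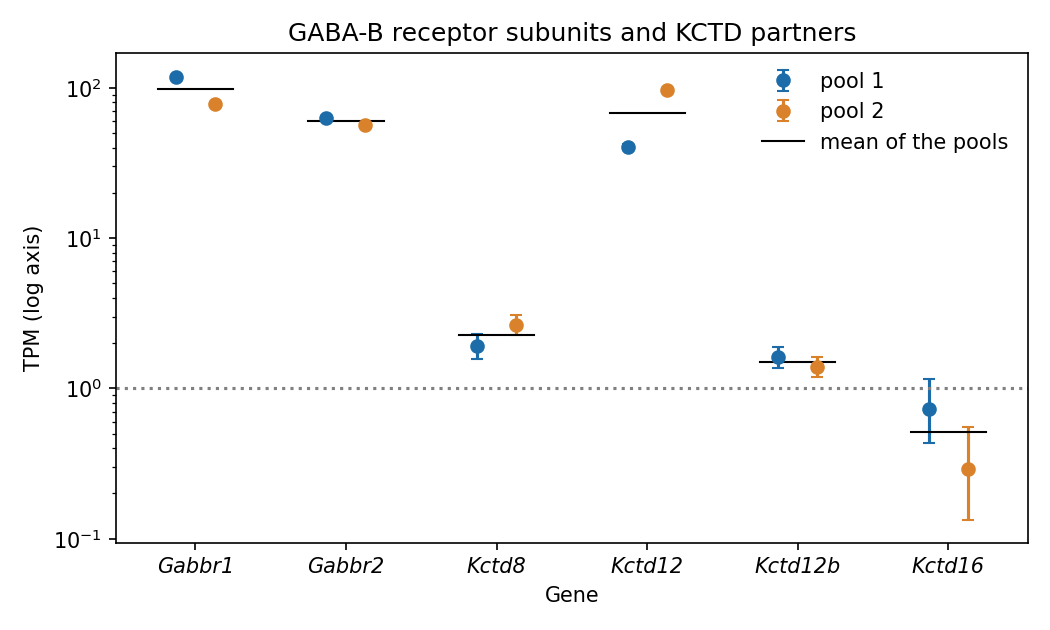
Level of each of the 6 genes in pool 1 (blue) and pool 2 (orange) on a logarithmic TPM axis, with exact Poisson 95% intervals of the counts, the mean of the pools as a black line and the detection limit of 1 TPM as a dotted line. Gabbr1, Gabbr2 and Kctd12 lie between 40.6 and 118.6 TPM, while Kctd8 and Kctd12b lie between 1.39 and 2.65 TPM and Kctd16 lies below the line in both pools.

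Kctd12 took 90.5% of the summed TPM of the 4 KCTD partners in pool 1 and 95.7% in pool 2, a mean of 93.1% ± 3.68 (SD, n = 2). By counts its share was 91.2% in pool 1 and 95.2% in pool 2. Kctd8 came next by share, with 4.26% in pool 1 and 2.63% in pool 2, ahead of Kctd12b with 3.62% in pool 1 and 1.38% in pool 2. By counts the order of these 2 was the other way round in pool 1, where Kctd8 had 3.38% and Kctd12b 4.81%, and in pool 2 Kctd8 had 2.44% and Kctd12b 2.201%. The 3 low partners together held 4.26 TPM in pool 1 and 4.33 TPM in pool 2, so the change in the sum lay in Kctd12. The 4 partners summed to 44.8 TPM in pool 1 and 100.6 TPM in pool 2, against 181.9 TPM in pool 1 and 134.9 TPM in pool 2 for the receptor genes. The ratio of partner to receptor TPM was 0.246 in pool 1 and 0.746 in pool 2.

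The partners are related in sequence, which bears on how reads are divided among them. The stretch of Kctd12 most like Kctd12b was taken as 60 coding bases of GRCm38, all on the minus strand and printed 5′ to 3′, at chr14:102981643-102981702 in Kctd12, chrX:153688993-153689052 in Kctd12b and chr5:69340504-69340563 in Kctd8. Capitals mark bases unlike Kctd12.
Kctd12: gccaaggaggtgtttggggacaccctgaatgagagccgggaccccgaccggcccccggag
Kctd12b: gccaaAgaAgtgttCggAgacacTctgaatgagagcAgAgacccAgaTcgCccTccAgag
Kctd8: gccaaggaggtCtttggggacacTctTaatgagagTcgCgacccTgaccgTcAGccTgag

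Even in this stretch 48 of 60 bases matched in Kctd12b. In Kctd8 50 of 60 matched, but the stretch was not chosen for likeness to Kctd8. Over the whole aligned coding sequence Kctd12 was 62.4% identical to Kctd12b and 69.4% identical to Kctd8, and the longest exact run it shared was 14 bases with Kctd12b and 22 with Kctd8. The full transcripts of Kctd12 and Kctd12b share an exact run of 48 bases outside the coding part.

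The difference between the pools was read against all genes. Of the 5 detected genes, 2 were past 1.5-fold between the pools, Gabbr1 higher and Kctd12 lower in pool 1, beside 11.5% of the 13210 genes with a mean TPM of at least 1 and 7.38% of the 6453 genes with a mean TPM of at least 10. At a ratio of 1.51 Gabbr1 was just past that limit, and Kctd8, at 0.797, was the nearest of those short of it. Gabbr1 was within 1.5-fold under every other scaling tried and over protein-coding transcripts only (ratios 1.35 with TMM, 1.36 with DESeq2 size factors, 1.28 with the lowess adjustment, 0.956 on the spike-in scale and 1.49 over protein-coding transcripts), while Kctd12 stayed past it in each. Kctd12 stood far out by whole-gene TPM: 12 of the 6453 genes and 126 of the 13210, itself included, had a ratio as low or lower. A ratio as high as that of Gabbr1 or higher was found for 345 of the 6453 genes and 923 of the 13210, Gabbr1 included. Over protein-coding transcripts only the ratio of Kctd12 was 0.535, which was not ranked. The median log2 ratio was 0.13 over the 5 genes and 0.072 over all 13210 genes, whose SD was 0.44.

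The direction held for Kctd12 under every scaling tried and for Gabbr1 under all but the spike-in scale. With TMM scaling of counts the log2 ratio was 0.44 for Gabbr1 and -1.06 for Kctd12. After a lowess adjustment for transcript length and expression it was 0.35 for Gabbr1 and -1.44 for Kctd12. Spike-ins are synthetic RNAs added to each library, and the median log2 ratio over 51 of them was 0.66, so a scale set by them lowers every gene's ratio by that amount. On it the log2 ratio was -0.065 for Gabbr1 and -1.89 for Kctd12. Gabbr2 and Kctd12b, both slightly higher in pool 1 by TPM, turned lower under the spike-in scale (-0.50 and -0.53) and the lowess adjustment (-0.14 and -0.053). Marker lists also moved between the pools. Granule cell markers were lower in pool 1 for 6 of 6 detected genes (median log2 ratio -0.38), and Purkinje cell markers were higher for 8 of 10 (median 0.33). Blood markers, chiefly hemoglobins, summed to 651 TPM in pool 1 and 2274 TPM in pool 2, and microglial markers to 15.6 TPM in pool 1 and 20.7 TPM in pool 2. Their part in the Gabbr1 and Kctd12 differences was not tested.

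**Figure D2:**
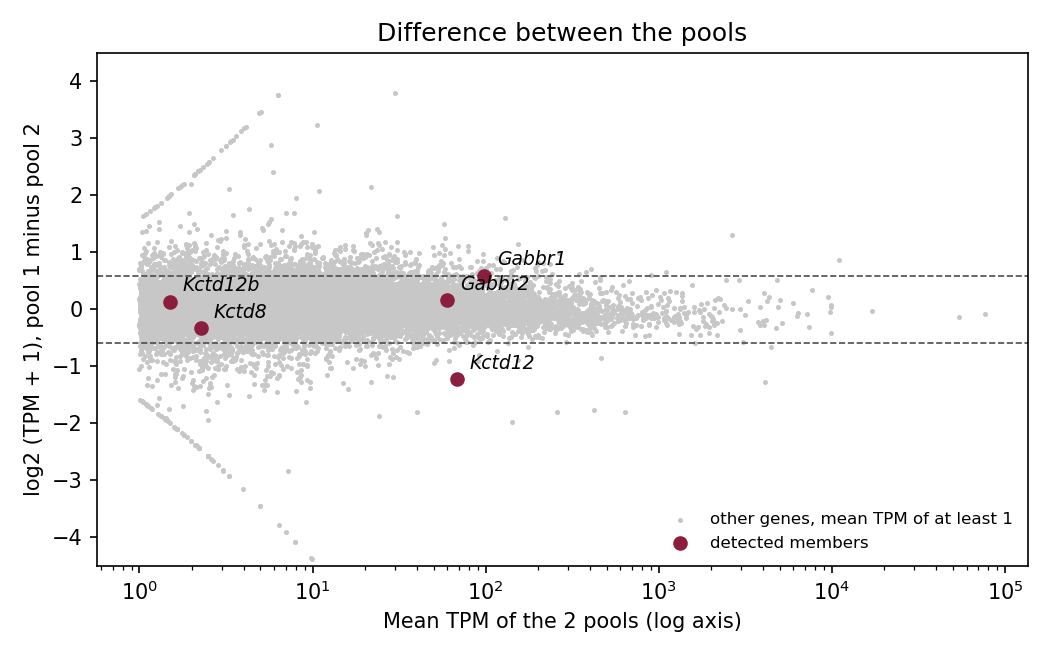
Log2 ratio of TPM + 1, pool 1 over pool 2, against the mean TPM on a logarithmic axis, for the 5 detected genes (red) and the other genes with a mean TPM of at least 1 (grey, 1 of them beyond the axis). Dashed lines mark 1.5-fold: Kctd12 lies below the lower line at -1.23, Gabbr1 on the upper line at 0.59, and Gabbr2, Kctd8 and Kctd12b lie between the lines.

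Transcripts showed where the Gabbr1 difference in TPM lay. Of the 11 Gabbr1 transcripts in the tables, Gabbr1-203, which encodes GABA-B1b, led with 90.3 TPM in pool 1 and 48.0 TPM in pool 2. It made up 76.1% of the gene in pool 1 and 61.4% in pool 2. Gabbr1-201, which encodes GABA-B1a, had 21.2 TPM in pool 1 and 25.7 TPM in pool 2, or 17.9% of the gene in pool 1 and 32.9% in pool 2. The short form thus led the long form in both pools, by 4.26 times in pool 1 and 1.87 times in pool 2. As a share of both forms together it was 81.0% in pool 1 and 65.1% in pool 2, a mean of 73.1% ± 11.2 (SD, n = 2). By counts, the share was 76.5% in pool 1 and 58.8% in pool 2. The gene differed by 40.35 TPM between the pools, pool 1 minus pool 2, of which Gabbr1-203 accounted for 42.24 TPM and Gabbr1-201 for -4.52 TPM. That division holds for the TPM scale only. The log2 ratio was 0.90 for Gabbr1-203 and -0.27 for Gabbr1-201, and the spike-in scale lowers both by 0.66. The forms share 3668 bases, while 1580 occur only in Gabbr1-201 and 368 only in Gabbr1-203, so the division rests on the authors' estimate from few distinguishing bases, above all for the short form. Part of the bases found only in Gabbr1-201 lie in the noncoding end of its last exon. That exon ends 29102 bases from the start of Gabbr1-201, against 28339 for Gabbr1-203. Those bases do not encode what sets GABA-B1a apart.

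Kctd12 was divided between transcripts of unlike length. Kctd12-202, a single exon of 6057 bases, carries the coding sequence of 981 bases and had 22.9 TPM in pool 1 and 43.7 TPM in pool 2. Kctd12-201, a spliced noncoding transcript of 539 bases that lies wholly within the exon of Kctd12-202, had 17.6 TPM in pool 1 and 52.6 TPM in pool 2. The short transcript rested on 5.38% of the gene's counts in pool 1 (154) and 8.15% in pool 2 (582), but took 43.5% of its TPM in pool 1 and 54.6% in pool 2. Counted over protein-coding transcripts only, Kctd12 averaged 33.3 ± 14.7 TPM (SD, n = 2) and its log2 ratio was -0.90. Then Gabbr1, at 114.4 TPM in pool 1 and 76.5 TPM in pool 2, led Gabbr2 and Gabbr2 led Kctd12 in both pools, and the ratio of partner to receptor TPM was 0.153 in pool 1 and 0.361 in pool 2. The noncoding gene Gm26778 shares 3805 exon bases with Kctd12 on the opposite strand and was listed at 0 counts in both pools. Whether the counting used strand is not given in the sources read, so reads of Kctd12 and Gm26778 cannot be told apart in these tables.

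The remaining genes had simpler transcript patterns. Gabbr2-201 made up 100% of Gabbr2 in pool 1 and 99.7% in pool 2, and Kctd8-201 made up 100% of Kctd8 in pool 1 and 96.2% in pool 2. Kctd12b-201 took 100% of Kctd12b in pool 1 and 51.6% in pool 2, with the rest in Kctd12b-202. These Kctd12b transcripts share 4740 bases and encode the same length of protein, 292 codons. The leading transcript was the same in both pools for 4 of the 5 genes with several transcripts, Kctd12 being the exception, beside 87.5% of 8634 detected genes with several transcripts. Ranked by counts it was the same for all 5.

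**Figure D3:**
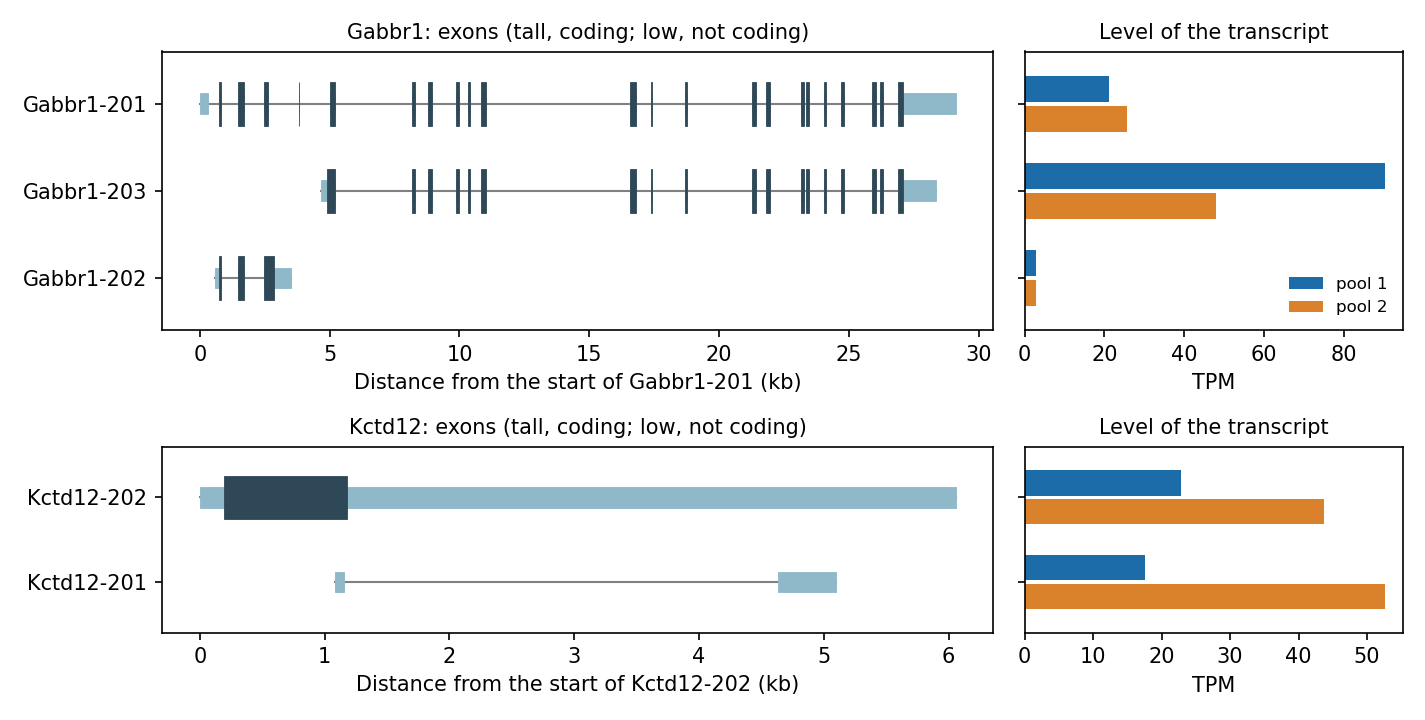
Exons of the Gabbr1 and Kctd12 transcripts against distance from the transcript start in kb (tall blocks coding, low blocks not coding), with the TPM of each transcript in pool 1 (blue) and pool 2 (orange) as bars from 0. Gabbr1-203 lacks the first exons of Gabbr1-201 and holds 90.3 TPM in pool 1 and 48.0 TPM in pool 2, and Kctd12-201 lies inside the exon of Kctd12-202 with 17.6 TPM in pool 1 and 52.6 TPM in pool 2.

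Class C receptors are the G protein-coupled receptor class of GABA-B and metabotropic glutamate receptors, and Gabbr1 had the highest TPM of the 19 class C genes listed, in both pools. Gabbr2 ranked 3 in both pools. It stood above Gprc5b, an orphan receptor, with 28.3 TPM in pool 1 and 25.1 TPM in pool 2. It also stood above Grm7, a group III metabotropic glutamate receptor, with 29.0 TPM in pool 1 and 21.2 TPM in pool 2. Of the 17 other class C genes 8 were detected, beside 51.7% of protein-coding genes, and 5 were listed at 0 in both pools.

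Of the 23 KCTD genes, Kctd12 ranked 2 in pool 1 and 1 in pool 2, or 3 in pool 1 and 2 in pool 2 over protein-coding transcripts only. Kctd8 ranked 17 in pool 1 and 15 in pool 2, Kctd12b 18 in both and Kctd16 21 in both. Kctd2, which is not a known GABA-B partner, had 65.0 TPM in pool 1 and 64.5 TPM in pool 2. Kctd1, a repressor of AP-2 transcription factors, had 33.2 TPM in pool 1 and 31.0 TPM in pool 2, and Kctd6, a cullin adaptor, had 19.5 TPM in pool 1 and 25.4 TPM in pool 2. Of the 19 other KCTD genes 15 were detected, beside 51.7% of protein-coding genes. Of those 15, 0 were past 1.5-fold between the pools, beside 11.5% of all genes with a mean TPM of at least 1. Their median log2 ratio was 0.10.

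**Figure D4:**
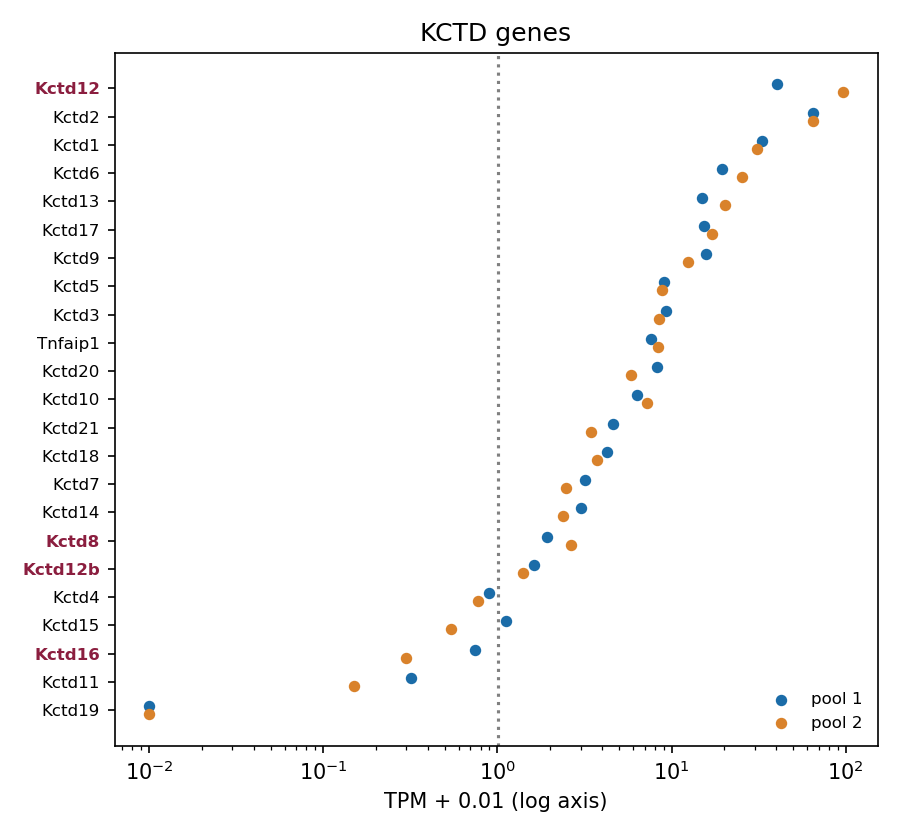
TPM + 0.01 on a logarithmic axis in pool 1 (blue) and pool 2 (orange) for 23 KCTD genes, ordered by mean TPM, with the 4 GABA-B partners in red and a dotted line at 1 TPM. Kctd12 stands at the top by mean with the widest gap between the pools among those over the line, while Kctd8, Kctd12b and Kctd16 stand near the bottom.

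Genes that act with the receptor were read from 9 lists of 78 genes in all, of which 55 were detected. By the same rule 28.8% of all genes and 51.7% of protein-coding genes were detected. The same shares are the background for the count of each list below. All 5 Gi/o alpha subunit genes were detected, led by Gnao1 with 137.7 TPM in pool 1 and 129.4 TPM in pool 2, Gnai1 with 120.2 TPM in pool 1 and 106.5 TPM in pool 2, and Gnai2 with 27.4 TPM in pool 1 and 30.3 TPM in pool 2. These encode the G proteins to which GABBR2 couples. Of the beta subunits 4 of 5 were detected, with Gnb1 at 293.8 TPM in pool 1 and 215.8 TPM in pool 2, Gnb5 at 65.5 TPM in pool 1 and 82.1 TPM in pool 2, and Gnb4 at 54.2 TPM in pool 1 and 59.97 TPM in pool 2. Of the gamma subunits 9 of 12 were detected. Gng13 far exceeded the others with 9570 TPM in pool 1 and 9861 TPM in pool 2, before Gng5 with 273 TPM in pool 1 and 349 TPM in pool 2 and Gng3 with 64.8 TPM in pool 1 and 89.6 TPM in pool 2.

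Effector channels were lower than the receptor genes. Of the GIRK subunit genes 2 of 4 were detected: Kcnj3 (GIRK1) had 24.4 TPM in pool 1 and 17.3 TPM in pool 2, and Kcnj9 (GIRK3) had 10.1 TPM in pool 1 and 10.2 TPM in pool 2. Kcnj6 (GIRK2) had 0.65 TPM in pool 1 (25 counts) and 2.19 TPM in pool 2, and Kcnj5 (GIRK4) was listed at 0 in pool 1 and had 0.03 TPM in pool 2. Cacna1a, the P/Q-type calcium channel gene, had 43.8 TPM in pool 1 and 42.3 TPM in pool 2, while Cacna1b, the N-type gene, had 0.47 TPM in pool 1 and 0.57 TPM in pool 2. The 3 detected channel genes differed by less than 1.5-fold between the pools. Among the genes of the 9 lists with a mean TPM of at least 1, those past 1.5-fold were Kcnj6, Gng2 and Grm4. Each was lower in pool 1. Gng2 had 4.83 TPM in pool 1 and 11.4 TPM in pool 2, and Grm4 had 2.19 TPM in pool 1 and 4.77 TPM in pool 2. They were 1 of 3 GIRK, 1 of 9 gamma subunit and 1 of 9 other class C genes at that level. In each remaining list 0 genes were past 1.5-fold. Those lists held 1 calcium channel, 5 Gi/o alpha, 4 beta, 4 R7 complex, 15 other KCTD and 8 binding partner genes at that level. Gnb5 was in both the beta and the R7 complex list. Over all genes at that level the share past 1.5-fold was 11.5%.

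Regulators and binding partners completed the set. R7 RGS proteins form a complex with Gnb5 and the anchor Rgs7bp that speeds the closing of GIRK channels, and 4 of its 7 genes were detected. Rgs7bp had 178.3 TPM in pool 1 and 154.0 TPM in pool 2, and Rgs7 had 21.2 TPM in pool 1 and 26.6 TPM in pool 2. All 8 genes of reported receptor-binding proteins were detected, with a median log2 ratio of 0.0091. App, the amyloid precursor, which binds a sushi domain of GABA-B1a, had 214.2 TPM in pool 1 and 183.6 TPM in pool 2. Next by mean TPM were Atf4, a transcription factor, with 96.6 TPM in pool 1 and 110.8 TPM in pool 2, and Ddit3, a stress-induced factor, with 93.0 TPM in pool 1 and 102.8 TPM in pool 2. Beyond these lists, the protein-coding genes nearest in level to Gabbr1 over the 2 pools, by distance in log2(TPM + 1), were Epdr1 (122.4 TPM in pool 1 and 80.1 TPM in pool 2, distance 0.056) and Dpp10 (114.7 TPM in pool 1 and 79.9 TPM in pool 2, distance 0.056). For Gabbr2 they were Tmed10 (63.5 TPM in pool 1 and 56.4 TPM in pool 2, distance 0.0076) and F3 (64.6 TPM in pool 1 and 56.4 TPM in pool 2, distance 0.029). Over 2 pools such nearness is a description of level only.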

How the data were processed

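The 2 libraries are replicates 1 and 2 of the labels. The authors deposited expected counts (estimated reads, not normalized), TPM and the percent of each transcript in its gene, quantified on mm10 with GENCODE M4, per the file headers and the notes deposited beside them. The aligner, quantifier and strand setting are not given in the sources used here. TPM as deposited includes the spike-ins, 1.40% of counts in pool 1 and 0.940% in pool 2. The tables held 69691 entries: 43346 genes, 97 spike-in entries and 26248 numeric entries of unstated identity, which were left out. GENCODE M21 on the same assembly named 42462 genes.

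Ratios are log2((TPM + 1) in pool 1 / (TPM + 1) in pool 2). Confidence limits are exact Poisson at 95%, and cover counting error only, since no molecular identifiers are named and reads need not be independent molecules. edgeR 4.0.16 (TMM) and DESeq2 1.42.0 in R 4.3.3 gave scale factors only, from expected counts rounded to whole numbers. The lowess adjustment used a span of 30%. Methods were tested on simulated data. Other thresholds, pseudocounts, scalings, filters and single pools were tried as alternatives. The 6 genes and all lists were chosen with earlier results of these data known. Named genes are the 6 members, the 3 of each list with the highest mean TPM and the 4 Kcnj genes, transcripts with at least 10% of a member in a pool, and the 2 genes nearest to each receptor gene. Gm26778, Gng2 and Grm4 were added outside that rule, after the values were seen. Results of some genes the rule names are not reported here. Scripts ran in Python 3.11.15 with scipy 1.17.1 and statsmodels 0.14.6.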

Additional observations from a re-analysis of the deposited data

How the results depend on the processing

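The sign of several log2 ratios depended on the scaling. On the spike-in scale that of Gabbr1, past 1.5-fold by TPM, was -0.065, that of Gabbr2 -0.50 and that of Kctd12b -0.53, and with the lowess adjustment Gabbr2 was at -0.14 and Kctd12b at -0.053. The median of the detected members was -0.53 on the spike-in scale and -0.14 with the lowess adjustment. Kctd8 passed 1.5-fold in place of Gabbr1 on the spike-in scale. Kctd8 and Kctd12 were lower in pool 1 under every setting that gave a ratio. The number of members past 1.5-fold was 1 with TMM, with DESeq2 size factors, with the lowess adjustment and with protein-coding transcripts only, Kctd12 each time. The share of all genes past 1.5-fold, 11.5% by TPM, is not given for the other settings, so these counts have no background beside them. With a threshold of 5 TPM 3 members were detected, and the share of all genes at that threshold is not given. The mean Gabbr1 share was 53.7% by counts, and the mean Kctd12 share was 89.1% with a pseudocount of 1 and 87.7% over protein-coding transcripts only, a setting chosen after the data were seen.

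Leaving out a replicate left a single value with no spread, which says nothing about stability. The Gabbr1 share was then 58.0% to 65.2%, the Kctd12 share 90.5% to 95.7%, the members detected 5 either way, and the pathway genes detected 56 to 57. The share of all genes detected in a single pool is not given. The ratios and the agreement of leading transcripts need both pools and gave no value there. No paired analysis was possible because the labels give 1 group. Depth limits Kctd16, with 18 counts in pool 1 and 9 in pool 2, and less so Kctd8 and Kctd12b.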
